A study of Homo sapiens with 2 samples.

Results

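The transcripts of respiratory complex I were examined in HepG2, a human hepatoma cell line, exposed for 4 h to berberine chloride at 40 µM, added from a DMSO stock, or to the vehicle alone (0.08% DMSO). The members were all probes whose gene symbol in the platform annotation begins with NDUFA, NDUFAB, NDUFAF, NDUFB, NDUFC, NDUFS or NDUFV followed by a digit. This gave 58 probes of 45 genes, out of 20046 genes with a single symbol on the BeadChip. Of the 45 genes, 44 encode proteins (6 core subunits, 30 accessory subunits and 8 NDUFAF assembly factors), and NDUFB2-AS1 is an antisense RNA next to NDUFB2. Each group had 1 array of total RNA, so every value below compares these 2 arrays, and no test between the groups was possible.

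Complex I takes electrons from NADH in the mitochondrial matrix, passes them along flavin and iron-sulfur clusters to ubiquinone, and pumps protons across the inner membrane. Its L-shaped structure has a matrix arm, where NADH is oxidized and ubiquinone reduced, and a membrane arm, which pumps. Core subunits carry out the chemistry and are shared with bacteria, accessory subunits surround and stabilize them, and assembly factors help to build the enzyme and then leave it. Berberine is known as an inhibitor of complex I, so the comparison asks whether the transcripts of the enzyme differed after short exposure to a drug that acts on it. Subunits encoded by mitochondrial DNA were not analysed here. NDUFA4, now named COXFA4 and assigned to complex IV, is not a member by its annotated symbol.

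A gene was measured when 1 of its probes was detected on both arrays at a detection p under 0.01, and its value is that of its brightest such probe. By this rule 40 of the 45 genes were measured, from 47 detected probes. NDUFA5, NDUFB4, NDUFC2, NDUFS6 and NDUFB2-AS1 had no probe that passed on either array. NDUFC2 came nearest, with a detection p of 0.0143 on the control array and 0.0325 on the other. These 5 genes therefore have no level here. Levels are given as the deposited normalized intensity, which still contains the background, and differences as log2 of berberine minus log2 of control after background correction with neqc. The 2 arrays had median intensities of 120.6 and 130.1 before normalization. HepG2 identity was read from hepatocyte markers, of which all 13 present among the named probes (ALB, APOA1, AFP and others) were detected on both arrays and none differed by over 1.5-fold. Of markers of other cell types, 0 of 8 fibroblast genes, 1 of 6 endothelial genes (ESAM) and 4 of 7 immune genes (CD68, LYZ, AIF1, FCGR3A) were detected. PTPRC, CD14 and CD3E were not detected. The summed intensity of the 7 immune genes before normalization, a scale on which the berberine array was brighter as a whole, was 6776 in control and 8711 in treated cells. ESAM had a log2 difference of 0.87, and the part of such genes in the results was not tested.

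Most complex I transcripts differed little between the arrays. Of the 40 measured genes, 0 were over 1.5-fold higher after berberine treatment and 1, the assembly factor NDUFAF8, was over 1.5-fold lower. Among all 9128 measured genes, 3.87% passed 1.5-fold upward and 4.09% downward. With both arrays set to the same median in place of quantile normalization the complex I counts were the same, beside 4.14% of all genes upward and 3.8% downward. In the deposited normalized intensity no complex I gene passed 1.5-fold in either direction, against 1.44% of all genes higher and 1.01% lower. The median log2 difference of the 40 genes was -0.03, with a range of -0.68 to 0.25, and that of all measured genes was -0.01. The sign of the complex I median depended on the scaling, being 0.03 with arrays set to the same median, where that of all genes was 0.02. In 31 of the 40 genes (77.5%) the log2 difference was within 0.25 of 0, compared with 64.45% of all measured genes. Many complex I probes were bright, and bright genes differed less on these arrays. Of the 33 complex I genes with a mean log2 level of at least 9, 28 (84.8%) were within 0.25, against 76.8% of the 3416 genes that were as bright. In that brighter range no complex I gene passed 1.5-fold, while 2.22% of all genes did so upward and 1.73% downward. There, 14 of the 33 complex I genes were above 0 and 19 below, against 48.4% and 51.4% of all genes.

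**Figure D1:**
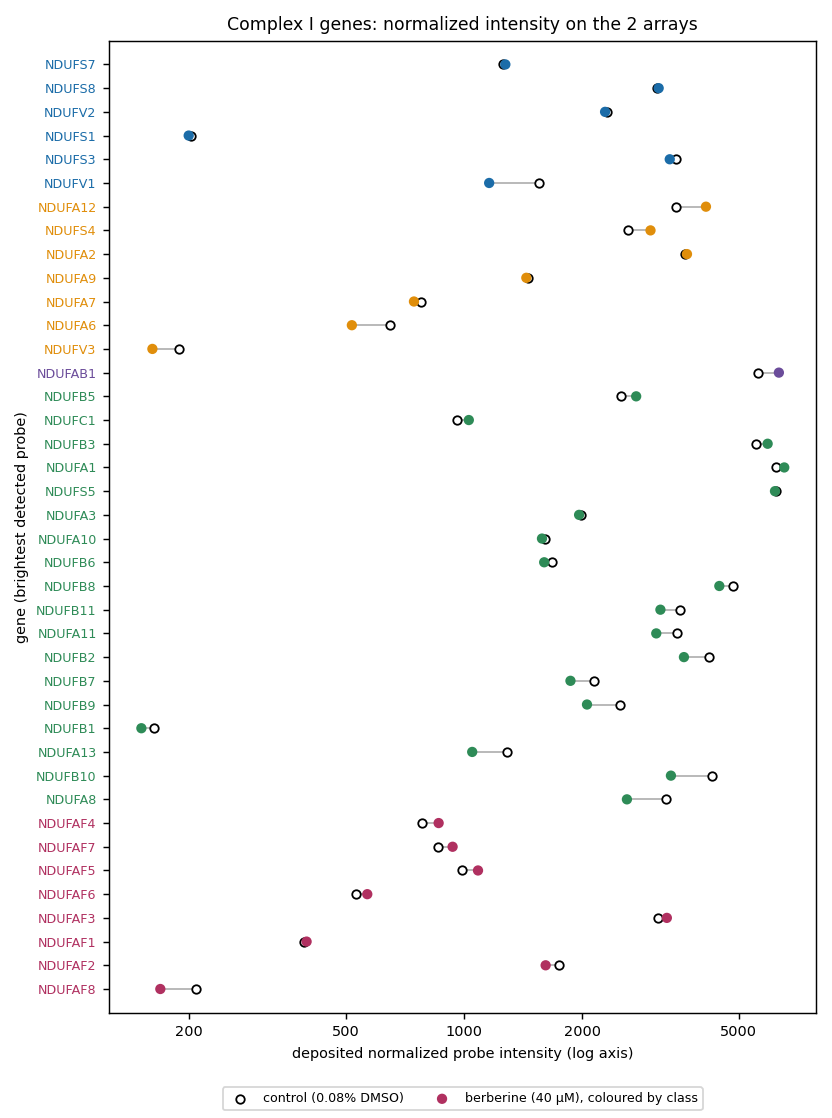
Deposited normalized probe intensity (log axis) of the 40 measured complex I genes on the control array (open circles) and the berberine array (filled circles), coloured by class with core subunits at the top and assembly factors at the bottom. The paired points nearly coincide for most genes, and NDUFV1 in the core shows the widest gap of its class, at 1555 in control and 1159 after berberine.

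The size of probe error was read from genes with at least 2 detected probes. Over 2193 such genes the SD of a single probe's log2 difference was 0.25, and over 497 genes with both probes bright it was 0.16. Such a value contains the error of the probe and any unequal change of transcript forms, but no variation from one culture to the next. In RNA from a whole culture, fewer expressing cells and less RNA per cell cannot be told apart.

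The core subunits of the matrix arm were nearly level apart from NDUFV1. NDUFV1, which holds the flavin and the NADH binding site, had a normalized intensity of 1555 without and 1159 with berberine. The log2 difference was -0.47 (1.38-fold lower), below the 1.5-fold threshold but over 1 SD of a single probe, and 676 of the 9128 measured genes had a lower difference. Its core partners in the NADH-oxidizing module had smaller differences. NDUFV2, which carries an iron-sulfur cluster, had 2315 and 2286 (log2 difference -0.02). NDUFS1, the largest subunit, which carries several clusters, had 201.5 and 199.2 (-0.03), close to the lowest detected intensities. In the ubiquinone module, NDUFS3, a structural core subunit, had 3459 and 3339 (-0.05). NDUFS7, which carries the last cluster before ubiquinone, had 1257 and 1274 (0.02). NDUFS8, which carries the clusters before it, had 3092 and 3129 (0.01). The median over the 6 measured core genes was -0.03, 4 were below 0 and 2 above, and each had 1 probe. With arrays set to the same median 4 were above 0 and the median was 0.025. Of all measured genes 52.4% were below 0 in the main values, and 52.9% were above 0 with that scaling.

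Accessory subunits of the matrix arm went both ways. Of 7 measured genes, 3 were higher and 4 lower, where 47.5% of all measured genes were higher and 52.4% lower. Their median was -0.02, which became 0.05 with arrays set to the same median and 0.02 over the 5 brighter genes. NDUFA12, which docks on the matrix arm late in assembly, had the highest value of all complex I genes by the brightest probe, with 3463 in control and 4128 after berberine (log2 difference 0.25, 1.19-fold higher). By the mean of detected probes NDUFAF4 was highest, at 0.35. NDUFS4, a subunit often mutated in Leigh syndrome, had 2617 and 2983 (0.20). In the other direction, NDUFA6, a small subunit of the LYR family that binds an acyl carrier protein, had 646.6 and 518.3 (-0.39, 1.31-fold lower). NDUFV3, a small subunit near NDUFV1, had 188.6 and 161.0. Its log2 difference was -0.57 after background correction (1.48-fold lower) but -0.23 in the deposited values, and its signal lay close to the background. A second NDUFV3 probe, annotated to another transcript form, was not detected on either array. The remaining members NDUFA2, NDUFA7 and NDUFA9 had log2 differences between -0.06 and 0.02. NDUFAB1, the mitochondrial acyl carrier protein, which sits in both arms, had 5588 and 6328 (0.17, 1.13-fold higher).

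Most accessory subunits of the membrane arm had slightly lower values after berberine. Of 18 measured genes, 14 were below 0 and 4 above, with a median log2 difference of -0.14 and a range of -0.35 to 0.14. Over all measured genes 52.4% were below 0. None of the 18 passed 1.5-fold, and 13 were within 0.25 of 0, about 1 SD of a single probe over genes of all levels. In the brighter range, which held 17 of the 18 genes, that SD was 0.16. There 13 of the 17 were below 0, against 51.4% of all genes in that range. NDUFA8, which has the twin cysteine motifs of proteins imported into the intermembrane space, was the lowest, with 3272 in control and 2598 in treated cells (-0.35, 1.28-fold lower). NDUFB10, which lies on the intermembrane space side too, had 4267 and 3362 (-0.33, 1.26-fold lower). NDUFA13, also known as GRIM-19 and implicated in cell death, had 1285 and 1049 (-0.31, 1.24-fold lower). These 3 genes had nearly the same differences in the deposited values, at -0.33, -0.34 and -0.29. NDUFB1 had -0.31 after background correction and -0.10 in the deposited values, with 162.1 and 151.0, close to the background. The genes above 0 were NDUFB5 at 0.14, NDUFC1 at 0.11, NDUFB3 at 0.10 and NDUFA1 at 0.07. The number below 0 depended on the scaling between arrays. When both arrays were set to the same median instead of being quantile normalized, 11 of the 18 genes were below 0 with a median of -0.07, while 47.1% of all genes were below 0.

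**Figure D2:**
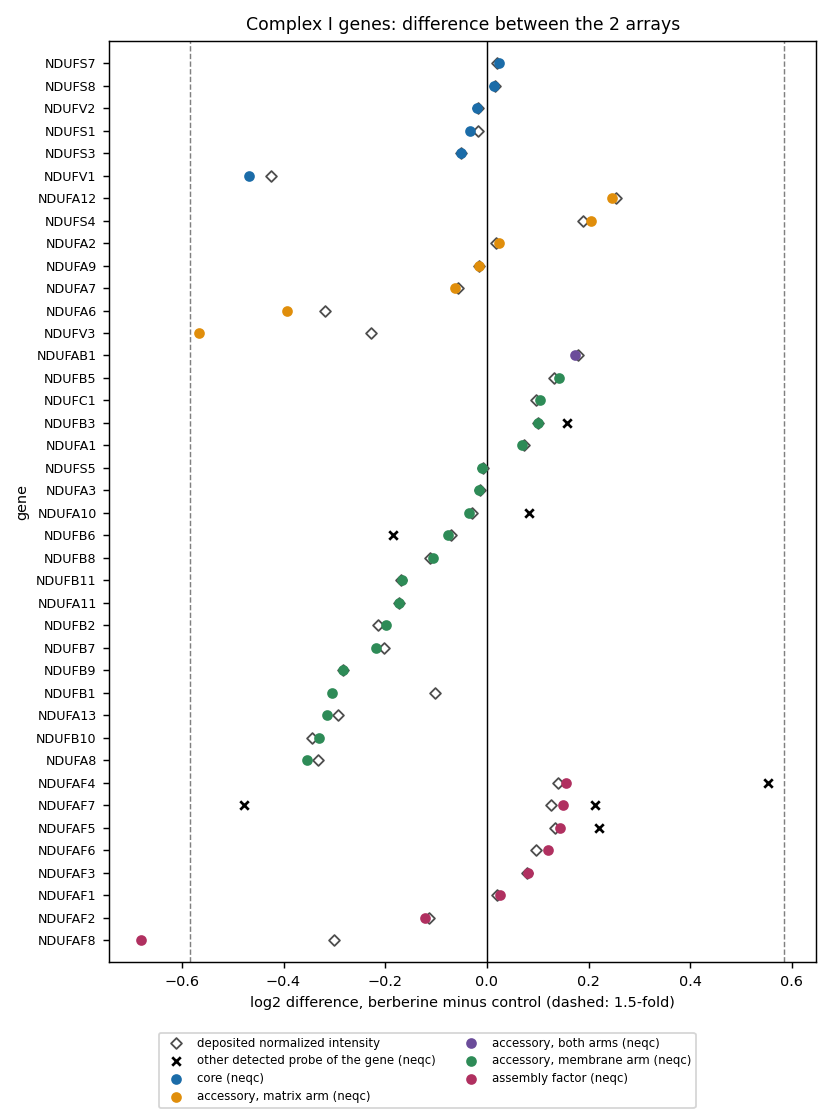
Log2 difference (berberine minus control) of each measured complex I gene after neqc (filled circles), in the deposited normalized intensity (open diamonds) and for other detected probes of the same gene (crosses), with dashed lines at 1.5-fold. NDUFAF8 is the only filled circle past a dashed line, at -0.68, and its open diamond lies at -0.30.

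The assembly factors were mostly slightly higher. Of 8 measured NDUFAF genes 6 were above 0, where 47.5% of all measured genes were, and the median was 0.10. By the brightest probe these 6 lay between 0.03 and 0.16, each under the single probe SD of 0.25 over genes of all levels. With arrays set to the same median again 6 were above 0, as were 52.9% of all genes. NDUFAF8, a partner that stabilizes NDUFAF5, was the exception, with 207.7 on the control and 168.7 on the berberine array on the deposited scale. Its log2 difference was -0.68 after background correction (1.60-fold lower) and -0.30 without it (1.23-fold lower). Of all measured genes, 242 had a lower difference than NDUFAF8. With an offset of 50 in place of 16 it no longer passed 1.5-fold (-0.48). It has 1 probe, whose signal on the berberine array was close to the lowest detected level. NDUFAF2, which resembles NDUFA12 and holds its place during assembly, was also lower, with 1745 and 1613 (-0.12).

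Several probes per gene gave a check within the assembly factors. NDUFAF5, an enzyme that hydroxylates an arginine of NDUFS7, had 988.7 in control and 1085 after berberine at its brightest probe (0.14) and a second probe at 0.22. NDUFAF4, which works with NDUFAF3 in building the ubiquinone module, had 782.2 and 861.8 (0.16). Its second probe, with 361.8 and 481.3, gave 0.55 (1.47-fold higher), so both were above 0 but differed by 0.40. The probes of NDUFAF7, an arginine methyltransferase of the mitochondrial matrix, did not share a direction. The brightest probe had 856.9 and 935.3 (0.15), another had 290.6 and 319.2 (0.21), and the remaining one had 481.9 and 376.2 (-0.48). With the mean of its probes NDUFAF7 was at -0.04, and 5 of the 8 assembly factors were then above 0. NDUFAF3 had 3109 and 3282 (0.08), and its other probes were not detected. NDUFAF1, which acts in building the membrane arm, had 392.0 and 397.5 (0.03). NDUFAF6, an early assembly factor, had 530.7 and 567.3 (0.10 in the deposited values and 0.12 after background correction). Among subunits, both probes of NDUFB3 were above 0 (0.10 and 0.16), both of NDUFB6 were below 0 (-0.08 and -0.18), and those of NDUFA10 straddled 0 (-0.04 and 0.08).

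Assembly factors without an NDUFAF symbol were not higher as a group. Of 11 measured genes among 12 on the array, 2 were above 0 and 9 below, with a median of -0.09, and none passed 1.5-fold. With arrays set to the same median 4 were above 0 and 7 below, with a median of -0.02. Of all genes 52.4% were below 0, or 47.1% with that scaling. TMEM70, a membrane protein best known for assembly of ATP synthase, was the lowest by the brightest probe, at -0.58 (-0.29 in the deposited values). Its second detected probe had -0.07 (-0.03 in the deposited values). By the mean of detected probes the lowest value of these genes was -0.44, that of NUBPL. NUBPL, which delivers iron-sulfur clusters to complex I, had a normalized intensity of 1226 and 923.5 (-0.44, and -0.41 in the deposited values). ACAD9 and TMEM126A, the genes above 0, had 0.14 and 0.11.

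The subunits of the other respiratory complexes and the mitochondrial ribosomal proteins gave a measure of how other mitochondrial genes behaved on the same arrays. Of 39 measured subunits of complexes II to V, 27 were above 0 and 12 below, where 47.5% of all measured genes were above 0. With arrays set to the same median 31 were above 0, against 52.9% of all genes. In the main values their median was 0.04, with a median absolute difference of 0.06. For complex I the median absolute difference was 0.13, and for all measured genes 0.17. In genes with a mean log2 level of at least 9 these were nearly equal, at 0.122 for complex I and 0.126 for all genes. The 76 mitochondrial ribosomal protein genes had a median of -0.05 (0.01 with arrays set to the same median) and a median absolute difference of 0.11. No gene in either list passed 1.5-fold, apart from 1 ribosomal protein gene under that scaling. COXFA4, which carried the NDUFA4 symbol before its move to complex IV, had 8154 in control and 8450 after berberine (0.06). Whether these lists differ from each other beyond culture-to-culture spread cannot be tested with 1 array per group.

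**Figure D3:**
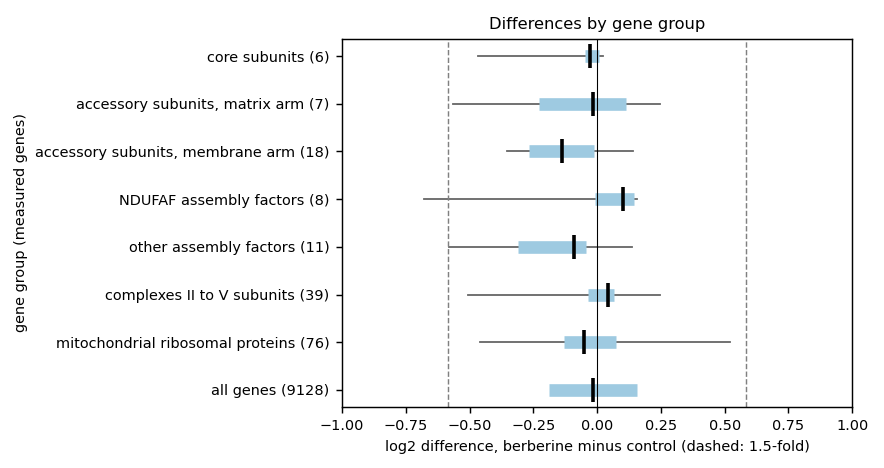
Median (black tick), interquartile range (bar) and full range (thin line, not drawn for all genes) of the log2 difference (berberine minus control) in each gene group, with the number of measured genes in brackets and dashed lines at 1.5-fold. The medians run from -0.14 for membrane arm accessory subunits to 0.10 for the NDUFAF assembly factors. The bar of all genes shows the spread of single genes and is no yardstick for group medians.

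Regulators of nuclear respiratory genes included the larger differences of the pathway. GABPB1, a subunit of the ETS factor GABP (also called NRF2 in older work on respiratory genes), was 1.73-fold higher at its brightest probe, at 0.79 on the log2 scale, or 0.67 in the deposited values. The deposited intensity was 548.3 in control and 871.0 after berberine. Its 2 other detected probes had 0.40 and 0.86. PPARGC1A, the coactivator of mitochondrial biogenesis, had 262.9 and 347.7 (0.62, 1.54-fold higher), and was 1.32-fold higher in the deposited values. GABPA, the DNA-binding partner of GABPB1, had 0.08, and ESRRA, a nuclear receptor that PPARGC1A coactivates, had -0.02. TFAM, which packages and transcribes mitochondrial DNA, had -0.26, and TFB1M had -0.17. Of 9 measured regulators among 11 on the array 2 were over 1.5-fold higher (against 3.87% of all genes) and none lower (4.09%), and in the deposited values 1 was higher (1.44%). The transcription factor NRF1 and the coactivator PPARGC1B had no detected probe. GABPA and ESRRA were chosen for being partners of the genes above after values were seen.

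Complex I promoters were compared for short motifs of these regulators in RefSeq sequence of GRCh38.p14, over 250 bases before and 50 after each start site and on both strands. Promoter sequence was found for 39 of the 44 coding genes, with 51 promoters, whether or not they held a motif. The ETS core CCGGAAG was in 15.7% of the 51 promoters and in 10.3% of all 35116 promoters. The YY1 core AAGATGG was in 21.6% against 5.84%, and the estrogen-related receptor core AAGGTCA in 9.80% against 3.92%. The NRF1 core GCATGCG (which overlaps its own reverse complement) was in 15.7% against 3.91%. These shares stand for 8 (ETS), 11 (YY1), 5 (estrogen-related receptor) and 8 (NRF1) member promoters, and some genes had several promoters. The 35116 promoters were not matched to the members for expression level, so whether the excess is particular to complex I was not tested. Windows of 30 bases from promoters of core and extreme members are shown because they place such motifs beside genes whose values are given above. They read 5′ to 3′ on the strand of the gene, and capitals mark the motif or its reverse complement.
NDUFS1, ETS, chr2:206159583-206159612, minus strand: ggctggggccaCTTCCGGcggaactgcggg
NDUFS3, ETS, chr11:47578961-47578990, plus strand: cggaacctccgCTTCCGGctccacgtccgc
NDUFAF4, ETS, chr6:96898020-96898049, minus strand: gccacctcccgCCGGAAGcggccctcgtgg
NDUFS7, NRF1, chr19:1383823-1383852, plus strand: ttccggtttccGCATGCGctccgagccgct
NDUFA6, NRF1, chr22:42090920-42090949, minus strand: tctgtagatgaGCATGCGcagcacccaccg

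The motifs did not sort the members by their values. NDUFAF4 at 0.16, NDUFS3 at -0.05 and NDUFS1 at -0.03 all hold the ETS core, as does NDUFAF8 at -0.68. The 7 measured genes with the ETS core had a median of -0.05, and the 29 without it had -0.02. For the NRF1 core the medians were 0.02 over 5 genes with it and -0.04 over 31 without it, and for the YY1 core they were -0.02 over 9 and -0.04 over 27. A motif match describes the sequence and does not show binding. In addition, 21 of the 45 members have pseudogenes in RefSeq, 69 in all, among them 12 for NDUFB4 and 5 for NDUFB3, and whether the probes of such genes also bind transcripts of the copies was not tested.

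**Figure D4:**
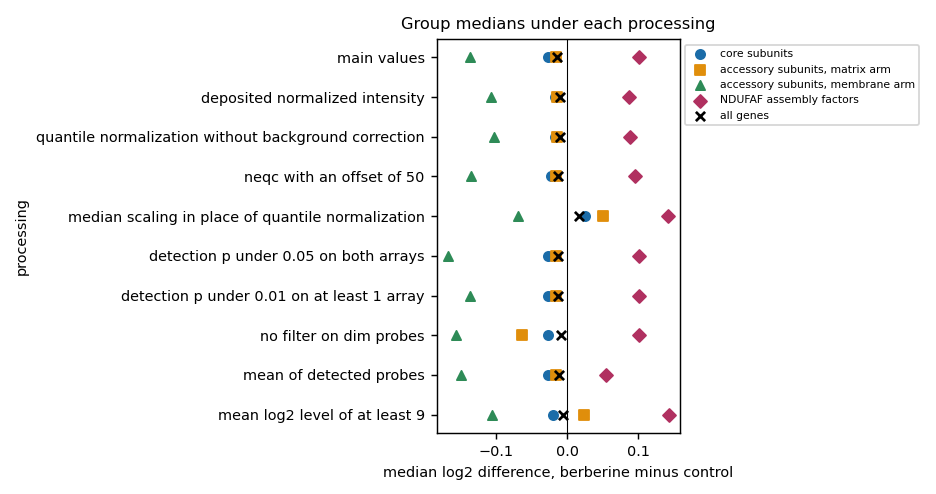
Median log2 difference (berberine minus control) of 4 complex I gene classes and of all measured genes under the main and the alternative processing. The membrane arm medians lie below 0 (-0.17 to -0.07) and the NDUFAF medians above 0 (0.05 to 0.14) under each setting, while those of the core and the matrix arm turn positive with arrays scaled to the same median, as does that of the matrix arm in the brighter genes.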

How the data were processed

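Total RNA was hybridized to Illumina HumanHT-12 v4 BeadChips, 1 array per group. The authors deposited one table of probe intensity without background subtraction or normalization, in which each value has a detection p-value, and another of normalized intensity (linear scale). The latter's sorted columns differed by at most 0.103% and its ranks equalled those of the first table, as after quantile normalization. The submitters' processing notes name GenomeStudio, and the method is not given in the sources used here.

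From the first table, differences were obtained by the neqc function (limma 3.58.1, R 4.3.3) (background from the detection p-values, offset 16, quantile normalization, log2). A single gene symbol was annotated to 30113 of the 47231 probes, and symbols were updated through Entrez identifiers. Subsequent steps used Python 3.11.15. The steps were tested on simulated data. No p-value between groups was computed. For counts 1.5-fold, the fold threshold of the study's methods, was used alone, without the p-value cut that those methods also name. Named genes are the core genes, members past 1.5-fold, the 5 highest and 5 lowest differences, members whose probes differ by over 0.5, and all NDUFAF genes, with the genes past 1.5-fold and the 2 largest differences in each direction of the pathway lists. NDUFB10, NDUFA13, NDUFB1, the membrane arm genes above 0 and the remaining members given values were named after their values were seen. The members and lists were chosen with earlier results of these data known. The number of arrays limits the precision.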

Additional observations from a re-analysis of the deposited data

How the results depend on the processing

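The counts past 1.5-fold of complex I and of all genes, the medians of the complex I classes, the other mitochondrial lists and all genes, and the values of single complex I genes were recomputed under 8 other settings and, chosen after seeing the data, in genes with a mean log2 level of at least 9. Of the values of single complex I genes, those of NDUFAF8 and NDUFV3 alone moved by more than the single probe SD of 0.25. They became -0.30 and -0.23 in the deposited values. They were also -0.30 and -0.23 with quantile normalization without background correction, by whose construction the background stays in the signal. Looser detection cuts, no filter and the brighter range kept the same brightest probe of each gene, so its value could not move there. Taking the mean of detected probes could change only the 6 genes with at least 2 of them. The number of complex I genes over 1.5-fold lower was 1, and 0 in the deposited values, without background correction, with an offset of 50 and in the brighter genes. Over all genes, 353 were higher and 373 lower. These numbers were 131 and 92 in the deposited values and also without background correction, 213 and 218 with an offset of 50, 671 and 671 with no filter on dim probes, and 76 and 59 in the brighter genes, and 533 were higher with detection on at least 1 array. With arrays scaled to the same median, the median of complex I was 0.0304, of membrane arm accessory subunits -0.0695, of complexes II to V 0.0971 and of mitochondrial ribosomal proteins 0.00548, and 6 of the 40 complex I genes, with main values of at most 0.051 in size, changed sign. With no filter the accessory subunits had a median of -0.125, and with the mean of detected probes the mitochondrial ribosomal proteins had -0.0104, and NDUFAF7 and NDUFA10 changed sign. Apart from what their construction shows, the cause of these shifts was not tested. No paired analysis was possible because each group has 1 array. The regulators, the motif medians, the numbers above and below 0, the shares within 0.25 and the median absolute differences were not recomputed under all of these settings. Signal near the background limits NDUFAF8, NDUFV3, NDUFB1 and NDUFS1.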
